A study of Arabidopsis thaliana with 26 samples.

Results

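Arabidopsis root cells marked by the SCARECROW (SCR) promoter were compared after 96 h on 2,4-D, a synthetic auxin, with cells of the same sort before treatment. The comparison used 2 arrays at 96 h and 3 untreated arrays, 5 of the 26 arrays of the series, chosen by their titles. Every probe set was included, whatever its behaviour. The untreated cells carried the pSCR::GFP reporter, had no auxin and were taken 2 days after germination. The treated cells carried the same reporter and came from seedlings moved at 2 days to medium with 1 µM 2,4-D, where they stayed for 96 h. Arrays at 24 h, 48 h and 72 h of the same treatment (2 each) entered the fit, and those at 24 h and 3 arrays of a separate harvest of quiescent centre (QC) cells served as points of reference. That harvest came from wild type roots 3 days old in which the WOX5 promoter drove the reporter. In every SCR group, root tips cut at 250 µm were protoplasted and green cells were sorted.

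The endodermis is the innermost ground tissue layer of the root. Its cells build the Casparian strip, a lignin band that seals the space between cells, and later coat themselves with suberin, so that water and ions must pass through membranes. The QC is a small group of slowly dividing cells whose neighbours are the stem cells of the root, and auxin is known to set the position of that niche. SCR is active in the endodermis and in the QC, so the sorted pools may hold both. Auxin acts by removing Aux/IAA repressors, which frees auxin response factors (ARFs) to switch on target genes.

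Some features of the design limit what the numbers can say. No untreated cells were profiled between 24 h and 96 h, so 2,4-D and seedling age cannot be told apart in any change against 0 h. The age label reads 2 days in all SCR arrays, treated ones included, and the labels' treatment protocol gives 2 days as the age at transfer to 2,4-D. The arrays measured pools of sorted cells, in which fewer cells of a type and less RNA per cell cannot be told apart. Nothing in the labels tells whether replicate arrays were grown and sorted apart, so p-values cover the spread of these arrays alone, possibly a technical one.

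The change was broad. Of 11469 probe sets tested with limma, 6013 (52.4%) passed at an adjusted p under 0.05, with 2837 (24.7%) higher and 3176 (27.7%) lower at 96 h, and a list of genes has to be read against these shares. Changes of at least 4 on the log2 scale (log2 of signal plus 16, used throughout) numbered 71 upward and 122 downward. The split depended on scaling: 47.2% of the calls were higher on the deposited values, 53.7% after quantile normalization and 63.9% when nuclear genes were set to equal medians. The median of all tested changes was -0.11, 0.09 and 0.30 under these scalings, and changes are given on the deposited scale. The split moved the other way without the filter on mean signal, where 37.6% of 7727 calls were higher. When only the arrays of the 2 groups were fitted, 41.4% of the calls were higher. Array correlations were 0.94 between the 96 h replicates and 0.85 to 0.95 at 0 h, against 0.54 to 0.61 between the groups. Median signals were 83.2 to 102.6 at 0 h and 63.6 to 67.3 at 96 h. Replicate 5 at 0 h stood apart in plastid transcripts, with a mean log2 signal of 10.01 against 7.08 and 7.67 in the other two, while the 96 h arrays lay at 9.63 and 9.06. In mitochondrial transcripts untreated replicate 5 was at 7.69 against 5.58 and 6.02, with the 96 h arrays at 7.23 and 7.60. For both genomes untreated replicate 5 thus lay above the 96 h arrays and the other untreated arrays below them. Of 80 plastid probe sets, 26 were higher and 6 lower at 96 h, and of 58 mitochondrial ones 23 and 5. The part of this in other results was not tested.

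**Figure D1:**
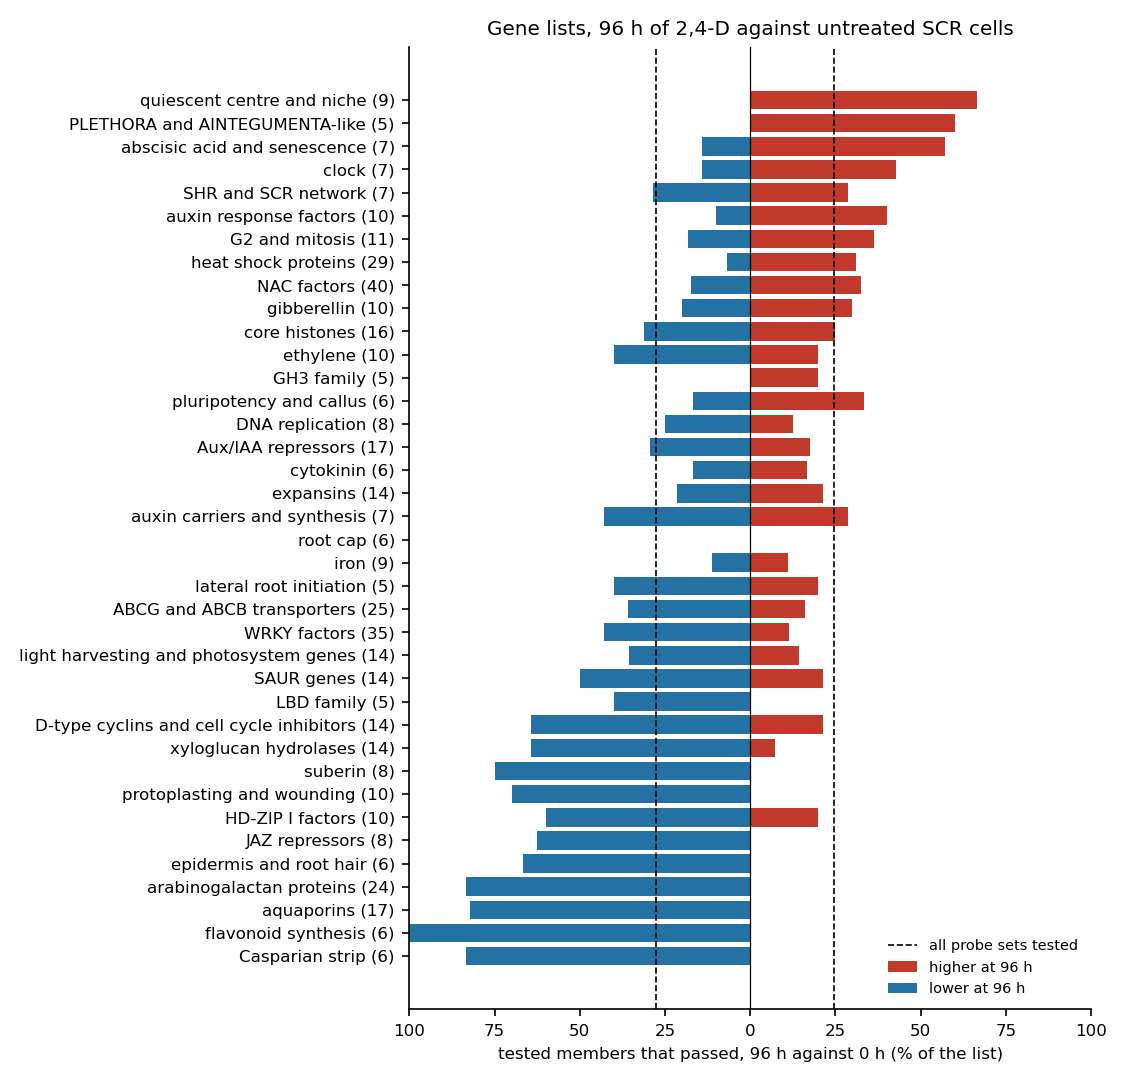
Share of the tested members of each gene list that passed at 96 h against 0 h, in percent of the list, with higher members to the right in red and lower members to the left in blue; the number tested is in brackets and the lists are in order of their median change. Dashed lines mark the shares over all tested probe sets, 24.7% higher and 27.7% lower; flavonoid synthesis, with 6 of 6 members lower, and the Casparian strip, with 5 of 6, lie far beyond the line on the left.

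The CASP genes and PER64, which build the Casparian strip, had lost nearly all their signal by 96 h. CASP2 (AT3G11550), a membrane scaffold protein of the strip, had signals of 4214, 4376 and 6558 in the 3 untreated arrays and of 44.6 and 61.9 at 96 h. It fell by 6.17 ± 0.33 (standard error) on the log2 scale (adjusted p = 4.67e-08). For CASP4 (AT5G06200), of the same family, the values were 1299, 1060.1 and 3285 at 0 h and 1 and 3.6 at 96 h. CASP5 (AT5G15290) went from 794, 947 and 1492 to 0.9 and 9.6. PER64, the peroxidase that polymerises lignin at the strip, had 5969, 5038 and 7659 before treatment and 7.8 and 109 after it. The log2 changes were -6.52 for CASP4, -5.67 for CASP5 and -6.82 for PER64. At 24 h signals were already far below the untreated ones, at 239.7 and 153.5 for CASP2 and 3.7 and 20.7 for CASP4. CASP5 stood at 100 and 63.8 at that time, and PER64 at 166.4 and 235.5. The 2 groups did not overlap in any of the 6 tested strip genes, and over all tested probe sets they did not overlap in 66.7% (30.9% higher and 35.9% lower at 96 h). Signals of a few units are at background, so the size of these falls depends on the pseudocount.

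SGN3, the receptor kinase that surveys the closure of the strip, was still bright at 24 h. Its signals were 1560.5, 2049 and 2872 at 0 h, 1729 and 1309 at 24 h and 197 and 223 at 96 h, a change of -3.23 against 0 h (adjusted p = 3.51e-06) and of -2.75 against 24 h (adjusted p = 0.00131). MYB36, the transcription factor that switches on strip genes, did not pass: 259, 423 and 2222 at 0 h, 200.5 and 159 at 96 h, a difference of -1.73 ± 0.68 (adjusted p = 0.0544). It passed without untreated replicate 1, with -2.35, and without untreated replicate 5, with -0.83. It also passed after quantile normalization (-1.80), under another variance setting and in a fit of all 26 arrays. In all, 5 of 6 tested strip genes fell, with a median change of -5.92 against -0.11 over all tested probe sets. The tissue label, endodermis, matches these markers at 0 h and goes against them at 96 h, so the 96 h cells are called here by their sort. SCR itself was measured at 383, 778 and 397 in untreated cells and at 664 and 1074 at 96 h, which overlap, and its difference of 0.76 ± 0.39 did not pass (adjusted p = 0.115), though it did without untreated replicate 3 (1.09) and with equal medians (1.16).

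**Figure D2:**
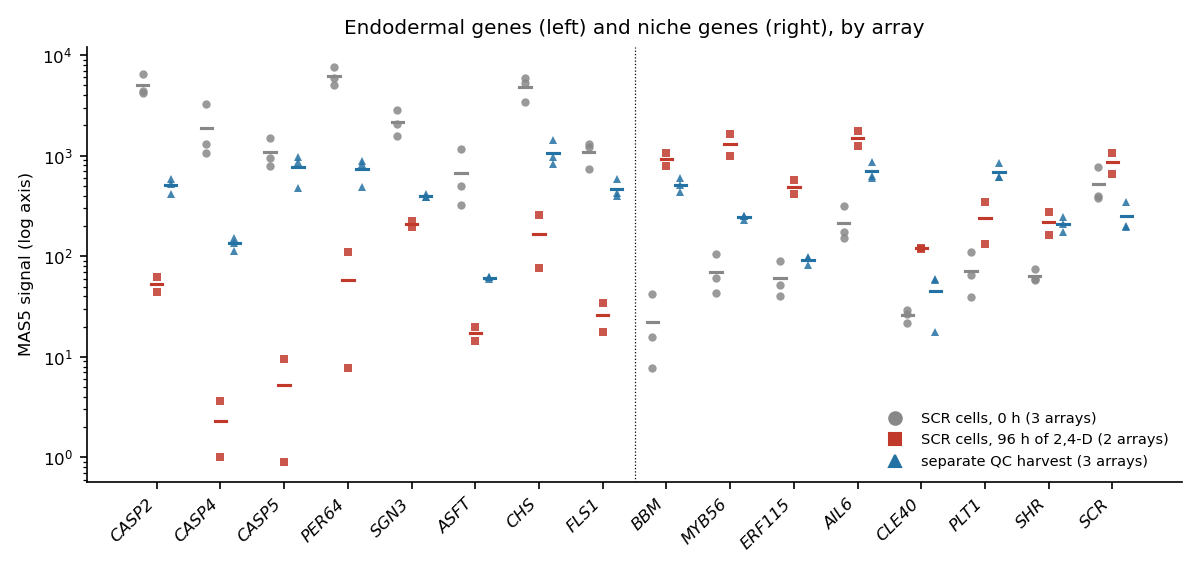
MAS5 signal on a log axis for endodermal and flavonoid genes (left of the dotted line) and niche genes (right) in untreated SCR cells (grey circles, 3 arrays), SCR cells at 96 h (red squares, 2 arrays) and the separate QC harvest (blue triangles, 3 arrays), with bars at group means. CASP2 stands at 4214 to 6558 before treatment and at 44.6 and 61.9 at 96 h, while BBM goes the other way, from 7.8 to 42.5 up to 784 and 1058; SCR overlaps between 0 h and 96 h.

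Suberin genes fell as well, 6 of 8 of them. ASFT, the transferase that adds ferulate to suberin, had 323, 505 and 1178 at 0 h and 19.9 and 14.4 at 96 h, and fell by 4.17 ± 0.62 (adjusted p = 0.000171). MYB41, a factor that can drive suberin formation, had signals of 131, 108 and 97.7 before and 23.7 and 0.5 after. The reductase FAR5, which makes the fatty alcohols of suberin, fell by 2.06, and the exporter ABCG6 fell by 1.82, a call lost without 96 h replicate 3. None of the 8 rose, and their median was -1.70. Fewer of the falls passed without 96 h replicate 3, where the median was -1.34. In a fit of all 26 arrays 1 fall passed, but some members lay under that fit's signal filter and were not tested. The median of the members still tested there was -1.19.

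Every tested gene of flavonoid synthesis fell (6 of 6, median -3.52), and the 2 groups did not overlap in any of them. Over all tested probe sets, 35.9% were lower at 96 h without overlap. Flavonoids are phenolic compounds of plant cells, and some of them are known to slow auxin transport. Chalcone synthase (CHS), the first enzyme of the branch, had signals of 5307, 5855 and 3430.3 at 0 h and 258 and 77 at 96 h. It fell by 4.90 ± 0.61 (adjusted p = 7.78e-05). The flavonol synthase FLS1 was at 744, 1317 and 1214 before and 34.2 and 17.8 after treatment, a log2 change of -4.71. F3H, which hydroxylates flavanones, went from 2389, 2957 and 2645 to 317 and 125 and fell by 3.62. Chalcone isomerase (CHI), with 318, 435 and 219 at 0 h and 30.4 and 4.1 at 96 h, fell by 3.43. The activator of these genes, MYB12, fell too, from 534, 882 and 249 to 122 and 50.7. Between 24 h and 96 h, FLS1 fell by 1.90 more and F3H fell by 2.00 more.

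Most tested genes of the QC and the stem cell niche (6 of 9) rose. BBM (AT5G17430), a transcription factor of the PLETHORA group that maintains the root niche, had 15.8, 7.8 and 42.5 at 0 h and 784 and 1058 at 96 h. It rose by 4.71 ± 0.39 (adjusted p = 1.11e-06), an amount that depends on the pseudocount because the untreated signals are near background. MYB56, also named BRAVO and known to restrain QC division, was at 60.1, 42.8 and 104 before and at 992 and 1641 after treatment. It rose by 3.99 ± 0.44 (adjusted p = 1.2e-05). AIL6, another PLETHORA factor, had 313, 152 and 175 in untreated cells and 1241 and 1758 at 96 h. ERF115, which drives QC cells to divide, went from 89.3, 39.9 and 51.6 to 415 and 571. Both rose by 2.77, and neither had an overlap between groups. Over all tested probe sets, 30.9% were higher at 96 h without overlap.

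CLE40, a signalling peptide of the distal niche, had 21.9, 26.7 and 29.4 at 0 h and 118 and 122 at 96 h and rose by 1.70. PLT1, the PLETHORA gene best known for the root niche, was at 64.4, 39.5 and 111 before and 131 and 349 after, a rise of 1.48 (adjusted p = 0.014) that was lost without 96 h replicate 3 (0.83) or untreated replicate 3. TAA1, AGL42 and AIL7 did not pass, with differences of -0.75, 0.23 and 0.26. So 6 of 9 tested niche genes rose and none fell (1 fell without untreated replicate 5), with a median of 1.70. AIL5, the fifth PLETHORA-type gene tested, differed by -0.69 and did not pass. TEL1, an RNA-binding protein gene of the niche, stayed under the signal filter and was not tested, with 3.4, 4.3 and 10.1 at 0 h, 47.4 and 42.5 at 72 h and 57.8 and 71.7 at 96 h. The cyclin CYCD6;1, which triggers formative divisions downstream of SHORT-ROOT (SHR) and SCR, was also under the filter, with signals of 43.9, 18.8 and 25.3 before and 10.4 and 0.6 after.

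In the SHR and SCR network 2 of 7 tested genes rose and 2 fell, near the shares over all tested probe sets (24.7% and 27.7%). SHR, a factor made in the stele that moves into the endodermis, had 60, 74.2 and 57.4 at 0 h and 164 and 275 at 96 h, and rose by 1.52 ± 0.46 (adjusted p = 0.0138). NUC, a zinc finger partner of SHR, rose by 1.21 from signals of 10.2 to 11.2. The NUC call was lost without untreated replicate 1 or 3 or either 96 h array and with a pseudocount of 64, and the SHR call was lost without 96 h replicate 3. With equal medians 4 genes of the network rose. JACKDAW (JKD), another zinc finger of the ground tissue, did not pass at 0.87 (adjusted p = 0.161), and passed without untreated replicate 5 and under both other scalings. BR6OX2, an enzyme of brassinosteroid synthesis, fell by 2.11, and SNE, an F-box gene of gibberellin signalling, fell by 1.95.

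Among genes of auxin signalling, 4 of 10 tested ARFs rose and 1 fell, with a median of 0.69. ARF5 (MONOPTEROS), the activator needed to form the embryonic root, had 124, 68.3 and 87.4 at 0 h and 691 and 940.1 at 96 h. It rose by 2.94 ± 0.30 (adjusted p = 5.01e-06). ARF9 went from 66.3, 63.2 and 102 to 364 and 463, a rise of 2.22. ARF2, a repressing ARF, rose by 2.03 on one probe set and also on its other one. ARF7, an activator in lateral root formation, rose by 1.55. One member, ARF8, fell by 1.12, a call lost without untreated replicate 3 or 96 h replicate 2.

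Of 17 tested Aux/IAA repressors 3 rose and 5 fell, with a median of -0.32 that lay between -0.54 and 0.28 over the alternatives. IAA30, an unusual member without the degradation motif, had 103, 127 and 99.8 at 0 h, 138 and 185 at 24 h and 1707 and 724 at 96 h. It rose by 3.17 ± 0.39 against 0 h and by 2.68 ± 0.42 against 24 h (adjusted p = 2.13e-05 and 0.0043). IAA13 rose by 2.71, to 1015 and 1430.1. IAA7 fell by 2.20 and IAA14 fell by 2.07. The higher count was 6 without untreated replicate 5, the lower count was 2 without 96 h replicate 3, and with equal medians 5 rose and 2 fell.

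SAUR genes, small transcripts many of which respond fast to auxin, rose in 3 of 14 tested cases and fell in 7, with a median of -0.92. SAUR78 had 285, 378 and 1245 at 0 h and 14.4 and 1.4 at 96 h, and fell by 4.53. SAUR36 went the other way, from 3.1, 2.5 and 4.4 to 79.6 and 220.1, and rose by 2.96. Only 2 of the falls were left without 96 h replicate 3. WES1, a GH3 enzyme that ties auxin to amino acids, was the only 1 of 5 GH3 genes to pass and rose by 1.73. LBD37 and LBD38, known from nitrogen responses, went to lower signals: LBD37 fell by 1.66, a call lost without 96 h replicate 2, and LBD38 fell by 1.58. The other 3 tested LBD genes did not pass.

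Auxin carriers and synthesis genes were split. YUC8, a monooxygenase of the last step of auxin synthesis, had 71.8, 87.7 and 138 at 0 h, 166 and 315 at 24 h and 1244 and 2139.9 at 96 h. It rose by 3.88 ± 0.37 against 0 h (adjusted p = 3.21e-06). Its relative YUC5 went from 108, 190.3 and 126 to 12.8 and 19.4 and fell by 2.27. LAX3, the influx carrier of cells that overlie lateral root primordia, fell by 3.78, from 197, 320.4 and 271 to 0.8 and 7.8. Of 7 tested genes 2 rose and 3 fell. Lateral root initiation genes gave 1 higher and 2 lower of 5: ARF7 rose, GATA23 fell by 2.39 and IAA28 fell by 1.56. Neither fall was kept without 96 h replicate 3 or with equal medians, and 1 of the 2 was left without any one of the other 4 arrays.

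The cell cycle lists differed in their counts. In DNA replication 1 of 8 tested genes rose and 2 fell (median -0.13). TSO2, a ribonucleotide reductase subunit, had 606, 786 and 821 at 0 h and 91.1 and 50.2 at 96 h, and fell by 3.15. MCM3, of the replicative helicase, rose by 1.48, to 223 and 345. The other fall, of CDC45 (-0.92), was kept without untreated replicate 5 and lost without each of the other 4 arrays in turn. PCNA1 differed by -0.16, which did not pass.

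In G2 and mitosis 4 of 11 rose and 2 fell (median 0.42). HIK, a kinesin of cytokinesis, had 50.9, 89.4 and 150 at 0 h, 15 and 43.3 at 24 h and 236 and 219 at 96 h. It rose by 1.21 against 0 h and by 2.51 against 24 h, so it lay below the untreated arrays at 24 h and above them at 96 h. POK1, a kinesin that guides the division plane, went from 8.2, 15.6 and 70.8 to 168 and 192, a rise of 2.27. The mitotic kinase AUR1 had 169, 163 and 254 at 0 h, 22.4 and 32 at 24 h and 63 and 48.3 at 96 h, and fell by 1.54. The cyclin CYCB1;3 fell by 1.77. Only 2 rises were left without either 96 h array. Against 24 h, 4 members were higher at 96 h and none lower, with a median of 1.33 against 0.09 over all tested probe sets.

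Of the inhibitors and D-type cyclins 9 of 14 fell and 3 rose, with a median of -1.20. SIM, which blocks mitosis in cells that double their DNA without dividing, had 575, 413 and 935 at 0 h and 60.3 and 31.3 at 96 h. It fell by 3.37 ± 0.37 (adjusted p = 8.74e-06). SMR1, of the same family, had 303, 323 and 608 before and 95.1 and 2 after, and fell by 3.19. CYCD5;1 fell by 2.16, and the inhibitor KRP2, outside the naming rule, fell by 1.81. The rises were in CYCD3;2 (1.10) and in the anaphase-promoting complex activators CCS52A2 (1.96) and CCS52B (1.73). Of the 9 falls 5 were left without 96 h replicate 3.

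Core histones gave 4 higher and 5 lower of 16 tested, near the shares over all tested probe sets, with a median of 0.12. HTA13 had 4720.1, 2408 and 2919 at 0 h and 513 and 708 at 96 h and fell by 2.38, and HTA6 fell by 2.02. HTB2, with 85.4, 57.7 and 351 before and 692 and 1063 after, rose by 2.64.

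**Figure D3:**
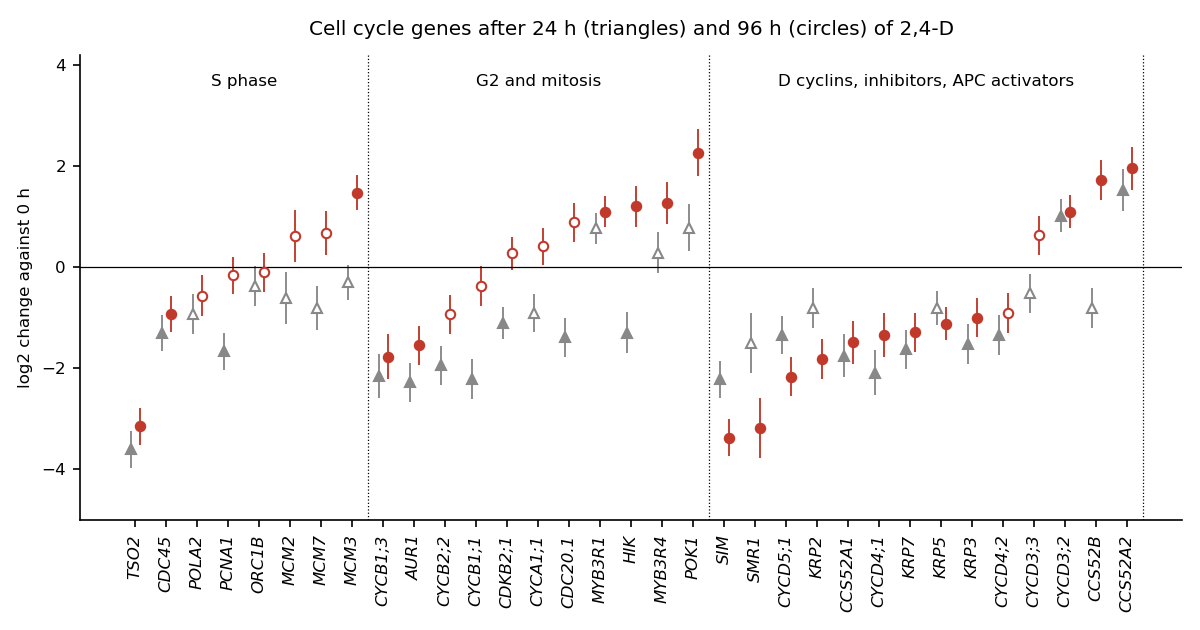
Log2 change against 0 h at 24 h (triangles) and 96 h (circles) with standard errors for each tested gene of DNA replication, of G2 and mitosis and of the D-type cyclins and inhibitors; filled symbols passed the test and open ones did not. HIK lies below 0 at 24 h and above 0 at 96 h, and SIM and SMR1 lie below 0 at both times.

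Water channels fell in 14 of 17 tested cases and rose in none, with a median of -2.73. TIP2;1, a channel of the vacuolar membrane, had 13703, 8994 and 15445 in the untreated arrays and 69.8 and 25.6 at 96 h. It fell by 7.70 ± 0.57 (adjusted p = 2.04e-06). TIP1;2, of the same membrane, went from 8826, 6146 and 13974 to 69.4 and 20.5, a log2 change of -7.35. PIP2A, in the plasma membrane, had 10013, 6262 and 10674 at 0 h, 2022 and 1835 at 24 h and 123 and 347 at 96 h. It fell by 5.29 from 0 h and fell by 3.11 from 24 h (adjusted p = 0.00291), so part of its fall came after 24 h. TIP2;2 fell by 5.28, from 2434, 1972 and 1302 to 29.1 and 34.9. Summed over all 22 probe sets of the list, the signal was 57720, 43731 and 65456 at 0 h and 4794 and 6287 at 96 h. PIP1C kept much of its signal, with 6504, 5415 and 4348 before and 2777 and 2938 after treatment, and fell by 0.90; it is outside the naming rule.

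Arabinogalactan proteins, sugar-rich proteins of the cell surface and wall, fell in 20 of 24 tested cases and rose in none (median -2.37). AGP14 had 8526, 6388 and 17034 at 0 h and 34.7 and 33.7 at 96 h. It fell by 7.60 ± 0.39 (adjusted p = 4.67e-08). AGP24 went from 9795, 7298 and 11292 to 102 and 69.7 and fell by 6.54. AGP13 fell by 6.72, and AGP22 fell by 5.43, to 39.8 and 0.6. The 4 members that did not pass were FLA10, AGP31, AGP15 and AGP12, with differences of -1.08, -0.41, -0.31 and 0.09. At 24 h AGP14 was already at 91.8 and 68.6 and AGP24 at 67.4 and 55.6, and none of the 24 passed between 24 h and 96 h (median -0.19).

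**Figure D4:**
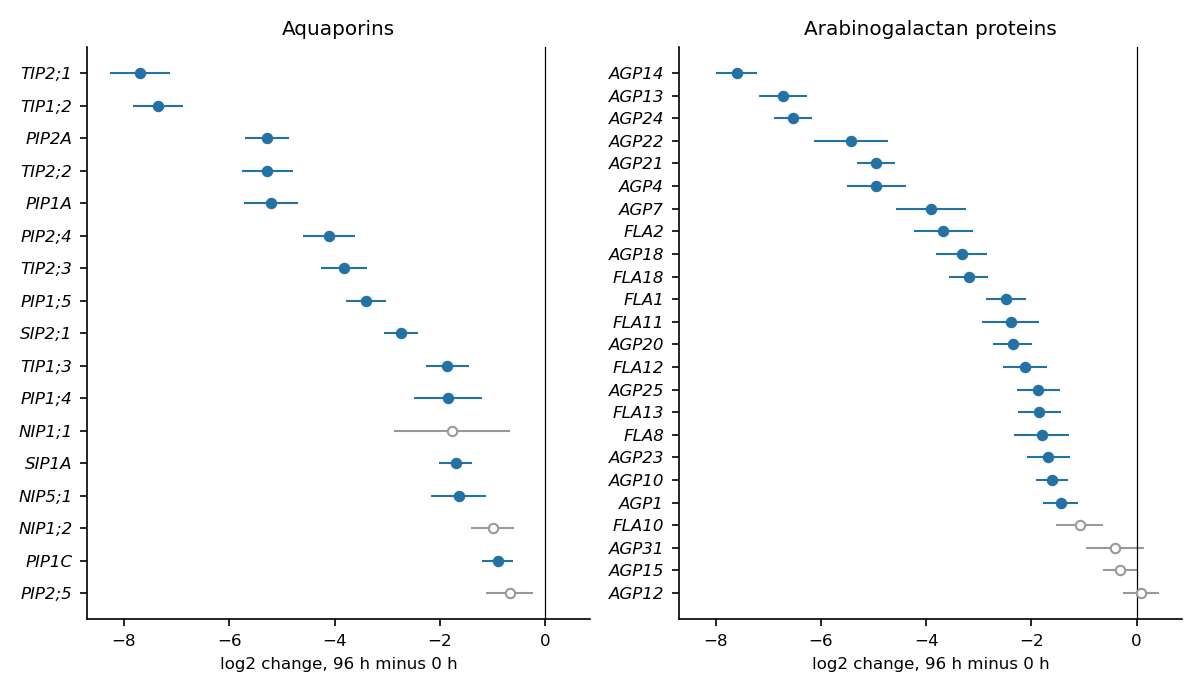
Log2 change from 0 h to 96 h with its standard error for the 17 tested aquaporins (left) and 24 tested arabinogalactan proteins (right); filled blue symbols passed the test and open grey ones did not. All filled symbols lie left of 0, down to -7.70 for TIP2;1 and -7.60 for AGP14.

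Enzymes that loosen or remodel the wall moved both ways. Of 14 tested xyloglucan endotransglucosylases (XTH genes) 9 fell and 1 rose, with a median of -1.54. XTH16 had 255, 542 and 917 at 0 h and 36.1 and 61.3 at 96 h and fell by 3.04. XTH18, still at 618 and 772 at 24 h, fell to 63.6 and 189.5, a log2 change of -2.85 against 0 h. XTH9 was the rise, from 105.4, 105.5 and 105.3 to 472.5 and 472.5, by 2.01 ± 0.35 (adjusted p = 0.000338). Expansins, which loosen walls, gave 3 higher and 3 lower of 14. EXLA2 had 59.7, 30.2 and 76.9 at 0 h, 43.7 and 42.7 at 24 h and 790.4 and 1583 at 96 h, a rise of 4.05 against 0 h. EXPA11 fell by 4.61, from 1027, 704 and 1356 to 23.6 and 27.1, and EXPA8 fell by 2.94. Without untreated replicate 1 only 1 of the 3 expansin falls was left.

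HB53 (AT5G66700), a homeodomain-leucine zipper (HD-ZIP) factor, was among the strongest rises. Its signals were 26.4, 35.7 and 42.5 at 0 h, 2523 and 1977 at 24 h and 5101 and 4371 at 96 h. It rose by 6.55 ± 0.32 (adjusted p = 4.67e-08). HB40, of the same class, went from 55.8, 41.5 and 9.8 to 442 and 289.7 and rose by 2.98. The other 6 of the 10 tested class members that passed fell, with HB-1 at -3.20 and HB-12 at -3.19. HB-1 had 1012, 530.1 and 388 before treatment and 54.8 and 46.3 after it. HB5 and HB52 did not pass, and the class median was -1.87.

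NAC factors gave 13 higher and 7 lower of 40 tested (median 0.18). ORE1 (NAC6), known as a switch of leaf senescence, had 172, 108 and 47.2 at 0 h and 4532 and 1416 at 96 h. It rose by 4.49 ± 0.49 (adjusted p = 1.6e-05) and was as bright at 24 h, with 3145 and 2747. NAC014 rose by 2.95, from 32.9, 32.4 and 13.7 to 263 and 349.8. NAC052 rose by 4.35 on a probe set marked for possible cross-hybridisation. The lower count was 4 without 96 h replicate 3 and 2 after quantile normalization.

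WRKY factors, many of which act in defence, fell in 15 of 35 tested cases and rose in 4, with a median of -0.86. WRKY69 had 817, 778 and 555 at 0 h and 33 and 22.2 at 96 h and fell by 4.06. WRKY66 fell by 3.69 and WRKY38 fell by 3.62. Upward, WRKY45 went from 35.5, 26.1 and 11.8 to 240.4 and 243, a rise of 2.72. The lower count was 9 without 96 h replicate 2 and 8 with equal medians.

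Of 6 tested genes tied to regeneration 3 passed. WOX13, a homeodomain factor of callus and wound repair, had 74.4, 11.1 and 80.9 at 0 h and 448 and 662 at 96 h and rose by 3.18. WOX11, which starts roots from detached leaves, rose by 1.84, from 14, 30.3 and 54.3 to 164 and 134. RAP2.6L, a factor of shoot regeneration, had 809, 379 and 215 at 0 h, 1029 and 526 at 24 h and 91.1 and 115 at 96 h and fell by 1.83.

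Most tested genes of jasmonate signalling and of wounding were lower at 96 h. JAZ proteins repress the jasmonate response and are themselves induced by jasmonate, and 5 of 8 tested fell and none rose (median -2.14; 1 rose without untreated replicate 5). JAZ10 had 2811.3, 2331.6 and 3444.1 at 0 h and 167.4 and 391.9 at 96 h. It fell by 3.38 ± 0.46 (adjusted p = 5.86e-05). JAZ8 went from 774, 488 and 545 to 23.1 and 48.8, a log2 change of -3.59. JAZ9 fell by 3.72 and JAZ3 fell by 2.34, while JAZ1 (0.66) and JAZ12 (-0.10) did not pass. The summed signal of the 8 JAZ probe sets overlapped between groups, at 11320, 9383 and 12457 at 0 h and 10010 and 8429 at 96 h. In the list of genes known to respond to protoplasting or wounding, 7 of 10 fell and none rose (median -1.85). LOX4, a lipoxygenase of jasmonate synthesis, had 234, 823 and 578 at 0 h and 41.5 and 36.7 at 96 h, and fell by 3.18. TCH4 (XTH22), a touch-induced gene, fell by 2.42, and ERF109 fell by 2.21. The count was 4 without 96 h replicate 2. Both groups were protoplasted, and the part of that handling in these values was not tested.

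Other hormone lists were mixed. Genes of abscisic acid and senescence rose in 4 of 7 tested cases and fell in 1 (median 1.41), ORE1 among the rises. RAB18, a dehydrin, had 33, 23.2 and 50.3 at 0 h and 314 and 374 at 96 h and rose by 2.83. RD29A, a stress-induced gene, rose by 2.42 and NCED3, an enzyme of abscisic acid synthesis, fell by 2.64; both calls were lost without 96 h replicate 3. In gibberellin genes 3 of 10 rose and 2 fell. GA3, which oxidises kaurene early in synthesis, went from 152, 136 and 221 to 1803 and 1915 and rose by 3.36. The receptors GID1C and GID1A rose by 1.99 and 1.68, and GA2OX6, which inactivates the hormone, fell by 2.38. The other fall, of GA2OX2, was lost without untreated replicate 3 or either 96 h array.

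In ethylene genes 2 of 10 rose and 4 fell. ACS2, which makes the ethylene precursor, fell by 3.76, from 192, 675 and 1355 to 27.6 and 26.2, and its relative ACS6 fell by 2.84. The higher count was 1 without untreated replicate 3 or 96 h replicate 3, and 4 with equal medians. Of 6 cytokinin genes, the response activator ARR1 rose on both its probe sets, by 1.55 and 3.39, and the response inhibitor ARR5 fell by 1.54. The ARR5 call was lost without any array but untreated replicate 1.

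Heat shock genes gave 9 higher and 2 lower of 29 (median 0.28). The plastid chaperone ATHSP93-V had 384, 397 and 239 at 0 h and 2988 and 2124 at 96 h and rose by 2.87, and the heat shock factor HSFA1A rose by 2.53. ATHSP22.0 fell by 3.18 from untreated signals of 365, 1021 and 92.3, in which replicate 5 was low, a call lost without 96 h replicate 3. Without untreated replicate 5, 11 heat shock genes were lower rather than 2, and without 96 h replicate 3 there were 5 rises rather than 9. The sum over the list's 32 probe sets was 51451, 54923 and 29024 in untreated replicates 1, 3 and 5, and 45023 and 37483 at 96 h.

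Further lists were small or close to the background share. Clock genes rose in 3 of 7 tested cases and fell in 1, and PRR5 rose by 2.38. Without 96 h replicate 3 PRR5 alone was left of the rises, and the fall, of PRR3, was lost without any 1 of the 5 arrays. In the iron list 1 of 9 rose and 1 fell. The rise was FSD1, an iron superoxide dismutase, with 231, 269 and 86.6 at 0 h, 196 and 84 at 24 h and 1992 and 1996 at 96 h (3.38 ± 0.52, adjusted p = 0.000195). YSL3, a transporter of metal chelates, fell by 1.62. Genes of the photosystems and light harvesting fell in 5 of 14 cases and rose in 2, among them PSBS, which protects photosystem II from excess light, at -2.55, and LHCB3 at 2.17. Their lower count was 2 without untreated replicate 1, and 3 without untreated replicate 5 or 96 h replicate 3, and 1 rise was left without untreated replicate 5 or either 96 h array. ABCG and ABCB transporters rose in 4 of 25 cases and fell in 9, the latter 4 without 96 h replicate 3. ABCG29, an exporter of a lignin precursor, fell by 4.54, from 369.7, 1119.8 and 1626 to 19.1 and 26.4.

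Markers of other root cell types were present at low to moderate signals. Of 6 root cap markers none passed (1 did when any of untreated replicate 1, untreated replicate 5 or 96 h replicate 3 was left out), and their summed signal was 343 to 1076 at 0 h and 457 to 475.5 at 96 h. Epidermis and root hair markers fell in 4 of 6 tested cases and rose in none, from a sum of 2046 to 3513 over 16 probe sets to 505 and 948. COBL9, of root hair growth, fell by 2.77. Their lower count was 1 without untreated replicate 1 and 2 without untreated replicate 5. The one cortex marker on the table, CYP71A16, had 145, 116 and 143 at 0 h and 69.4 and 3.7 at 96 h and fell by 1.87, a call that was lost without 96 h replicate 3.

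Of the vascular markers few could be tested. The phloem marker OPS lay between 11.9 and 24.1 before and at 219 and 233 after treatment and rose by 2.82. The sum over the 4 phloem markers was 76.8 to 152 at 0 h and 249 and 283 at 96 h. Among 2 tested xylem markers TMO5 rose by 1.39 from signals of 3.7, 1.7 and 11.3, and CESA7 did not pass. The TMO5 call was lost without untreated replicate 1 or 3, and TMO5 was under the signal filter without either 96 h array. The xylem sum was 261 to 607 over 10 probe sets at 0 h and 173 and 289 at 96 h. The part of these other cell types in the results above was not tested.

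By size of change alone, several genes outside the lists led. AT5G66780, a locus with no symbol in the gene table, went from 43, 18.3 and 90.5 to 3808 and 5286 and rose by 6.23. AT5G58520 had 4.9, 9 and 9.4 at 0 h and 1243 and 1847 at 96 h, a rise of 6.02. AT5G52050, listed as DTX50, a carrier of the detoxification efflux family, rose by 5.15, from 166, 177 and 120.1 to 7932 and 4504. AT1G26680 was dark at 0 h with 3.3, 2.9 and 10.1, low at 24 h with 35.7 and 79 and reached 702 and 617 at 96 h. Falls were led by AT5G44020, with 11123, 4366 and 3824 at 0 h and 4.9 and 16.7 at 96 h (-7.77 ± 0.86, adjusted p = 8.02e-05). AT5G04120 fell by 7.06, from 1834, 1666 and 4808 to 2.6 and 2.4. Which gene led depended on the pseudocount, since these 96 h signals are at background: with a pseudocount of 1 AT5G04120 came first among the genes named, and with 64 TIP2;1 did. AT3G22600, listed as LTPG5, a lipid transfer protein anchored to the membrane, fell by 6.37, from 11686, 8749 and 17287 to 154 and 110.3. Also among the 12 largest falls were TIP2;1, TIP1;2, AGP14, AGP13, AGP24, PER64 and CASP4, described above.

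Far fewer genes passed between 24 h and 96 h than against 0 h. Between 24 h and 96 h 443 of 11469 probe sets passed (3.86%), 226 higher (1.97%) and 217 lower (1.89%). The counts rest on 2 arrays each: 14 probe sets passed without 24 h replicate 2, 119 without 96 h replicate 2 and 174 without 96 h replicate 3. After quantile normalization 41.6% of the calls were higher, and 42.5% with equal medians, against 226 of 443 on the deposited scale. MYB56 went from 89.7 and 147 at 24 h through 124 and 302 at 48 h and 371 and 717 at 72 h to 992 and 1641 at 96 h, a late rise of 3.30 (adjusted p = 0.00316). EXLA2 was at 227 and 954 at 72 h and rose by 4.26 from 24 h to 96 h (adjusted p = 0.00281). FSD1 rose by 3.79 and YUC8 by 2.75. CYP78A10, of a cytochrome P450 family linked to organ size, rose by 3.43, to 685 and 194. AT5G14920, listed as GASA14, rose by 3.83. Of these, MYB56 and EXLA2 no longer passed without 24 h replicate 2, and CYP78A10 without that array or 96 h replicate 2. The late rise of BBM (2.20) was lost without 24 h replicate 2 or either 96 h array. Those of AT5G14920 and ERF115 (1.93) were lost without any 1 of the 4 arrays and after quantile normalization, and a pseudocount of 1 ended those of BBM and ERF115.

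Falls after 24 h included enzymes of phenolic synthesis. PRR1, a pinoresinol reductase of lignan synthesis, had 1682, 2072 and 3822 at 0 h, 1360.3 and 1016 at 24 h, 118 and 107 at 72 h and 21.6 and 76.1 at 96 h. It fell by 4.34 ± 0.44 from 24 h to 96 h (adjusted p = 0.000399). FLS3, of the flavonol synthase family, went from 338 and 418 to 22.3 and 10 and fell by 3.63. AT1G76470 fell by 3.56, from 467 and 406 to 26 and 19.1. The falls of FLS3 and AT1G76470 were lost without 24 h replicate 2, and that of FLS3 also without 96 h replicate 3.

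Some genes moved one way by 24 h and the other way by 96 h. Counted here were probe sets that passed against 0 h at both times in opposite directions and also passed between 24 h and 96 h. There were 15, with 6 higher and 9 lower at 96 h. The pass between 24 h and 96 h was part of the selection, so probe sets that failed it were left out. Both comparisons with 0 h use the same untreated arrays. TDT, the malate carrier of the vacuolar membrane, had 116, 124 and 226 at 0 h, 1474 and 706 at 24 h, 374 and 412 at 48 h, 232 and 204 at 72 h and 32.9 and 20.4 at 96 h. It rose by 2.65 by 24 h and stood -1.97 from its untreated level at 96 h (adjusted p = 0.000604), a change of -4.62 ± 0.40 between the 2 times (adjusted p = 0.000185). PER4, a peroxidase, rose from 473, 626 and 413 to 874 and 910.1 and then fell to 44.6 and 92.5. UGT74F2, which glucosylates salicylic acid, had 2438 and 1456 at 24 h and 246 and 72.8 at 96 h against 851, 232 and 571 at 0 h, with an overlap between 0 h and 96 h. Its call between 24 h and 96 h was lost without 24 h replicate 2 or 96 h replicate 3. XTH9 went down first, to 10.6 and 38.5, and then up to 472.5 and 472.5.

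**Figure D5:**
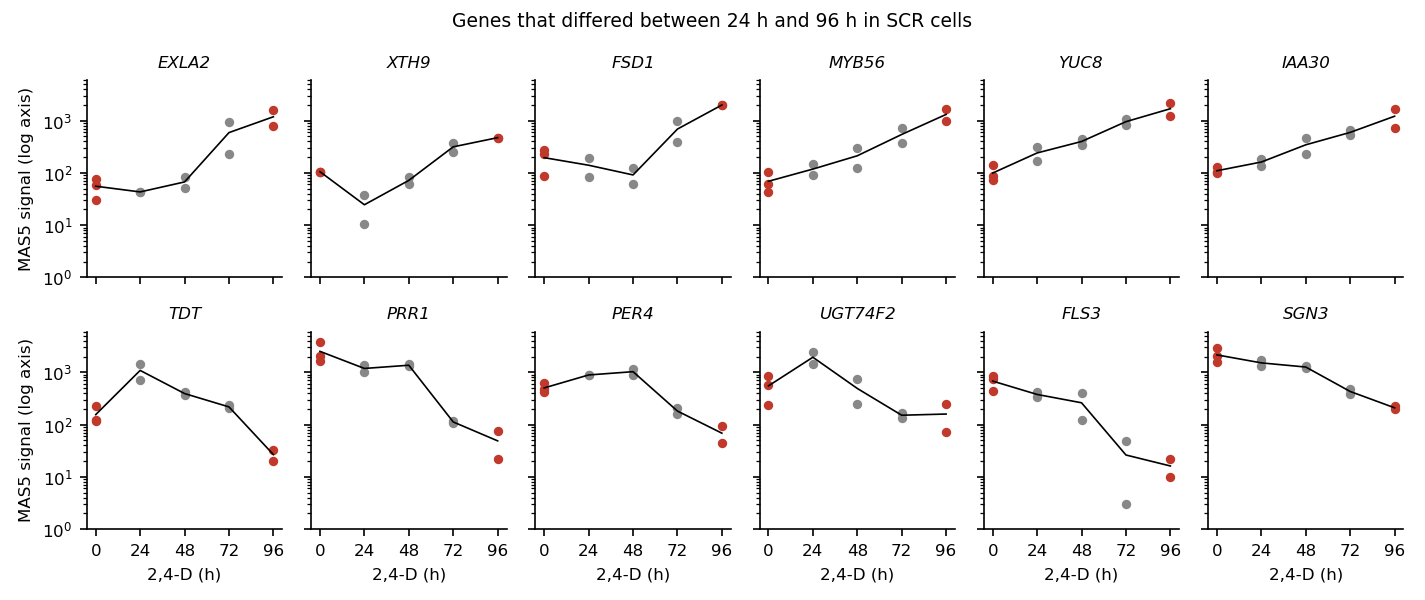
MAS5 signal on a log axis at 0, 24, 48, 72 and 96 h for 12 genes that passed between 24 h and 96 h; points are arrays (3 at 0 h, 2 at each other time) and lines join group means. TDT peaks at 24 h and ends below its untreated arrays, while XTH9 dips at 24 h and ends at 472.5 in both 96 h arrays.

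Set beside the separate QC harvest, the cells at 96 h were not the same. The QC plants differed in reporter, age and treatment, which cannot be told apart here. Of 11469 probe sets 3472 (30.3%) passed, 1577 higher (13.8%) and 1895 lower (16.5%) in the 96 h cells. The share of higher calls was 45.4%, and 65.7% with equal medians, where the median change was 0.32. BBM was at 434, 507 and 595 in the QC and did not differ beyond the threshold from the 96 h cells (0.82 ± 0.36, adjusted p = 0.0953), though it passed under 3 alternatives. AIL6 was higher in the 96 h cells, at 1241 and 1758 against 630.1, 598 and 870.4 (1.08 ± 0.31, adjusted p = 0.0157), a call lost without 96 h replicate 3 or QC replicate 1 or 2. MYB56 and ERF115 were higher in the 96 h cells by 2.31 and 2.22. PLT1 was lower, 131 and 349 against 608, 617 and 849 (-1.59 ± 0.42, adjusted p = 0.00844), a call lost without 96 h replicate 2. TEL1 was lower too, 57.8 and 71.7 against 319, 295 and 343 (-2.06 ± 0.35, adjusted p = 0.000362). Of 11 tested niche genes 4 were higher and 3 lower.

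Several groups that had fallen lay below the QC as well. Of the suberin genes, which had also fallen, 4 were tested against the QC and none passed (median -0.57). The summed suberin signal over 10 probe sets was 315 and 270 at 96 h and 311 to 468 in the QC. Strip genes were lower than in the QC in 5 of 6 cases, CASP2 with a difference of -2.92 and QC signals of 527, 420.4 and 583. SGN3 was lower by less (-0.88), a call lost without any single array of either group, with equal medians and in a fit of all 26 arrays. Water channels were lower in 14 of 17 cases (median -3.47) and arabinogalactan proteins in 15 of 25, with 2 higher. TIP2;1, at 69.8 and 25.6 in the 96 h cells, stood at 2583, 2646 and 2744 in the QC. AGP24 had 5948, 7354 and 6837 in the QC, against 102 and 69.7. Epidermis and root hair markers were lower in 13 of 15 cases, and their sum was 5426 to 5856 in the QC. Root cap markers were lower in 4 of 6 cases and higher in 1, with a QC sum of 2222 to 2343. The QC harvest thus held more signal of these other cell types' markers than the 96 h cells, and the part of this in the comparison was not tested. In the other direction, HB53 was at 52.9, 85.6 and 29.9 in the QC and higher by 6.11 in the 96 h cells (adjusted p = 7.69e-09). SCR was also higher in the 96 h cells, by 1.75, from 199.6, 196 and 349.7 in the QC.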

How the data were processed

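Per the labels' protocols, RNA of sorted protoplasts was treated with DNase, amplified with the WT-Ovation Pico system and biotin-labelled. Per the submitters' processing notes, the authors made the deposited values with MAS5, and their range is that of linear signal intensities. No source used here gives the version of MAS5, its scaling target or the array type. Each array's mean signal, after trimming 2% at each end, lay between 251 and 255 in the arrays used, and 3 columns of the deposited matrix whose names match no single sample were not used. The table holds 16384 probe sets, only 401 of chromosome 2, so most genes of that chromosome were not analysed here. Of 16255 loci, 16032 matched an entry in RefSeq's gene table (assembly TAIR10.1), the source of symbols and synonyms. Sequences were not used here.

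A pseudocount of 16 was added before taking log2, so changes of weak genes are understated; the arrays were not normalized again. The 11 SCR arrays were fitted together with limma 3.58.1 in R 4.3.3 (lmFit, eBayes with trend and robust), and joined by the 3 QC arrays for the comparison with the QC. Probe sets at or above the 30th percentile of mean log2 signal were tested, two-sided, with Benjamini-Hochberg adjustment over all of them, and passed at an adjusted p under 0.05. Errors after ± are standard errors of these fits, with 2 arrays against 3 at 96 h and 0 h. The number of arrays limits the precision. In simulated data of the 96 h against 0 h comparison, with 11469 probe sets, 6% of 100 changes of 1 and 67% of 100 changes of 2 on the log2 scale were recovered. For 96 h against 24 h the shares were 3% and 49%, and for 96 h against the QC 20% and 83%. The simulated data held no other changes, whereas 52.4% of probe sets passed at 96 h against 0 h and 30.3% against the QC. The adjustment for many tests was therefore stricter in the simulation, and its shares cannot be read as the recovery in the data. Python 3.11.15 with matplotlib 3.10.9 drew the plots.

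The comparison and the 41 gene lists were chosen with earlier results of these data known. Where several probe sets match a gene, one is printed, and MYB3R1 and ABCG30 are genes whose probe sets disagree. Named are up to 4 passing members of each list with the largest change, the 12 largest rises and 12 largest falls against 0 h and the 6 largest each way against 24 h (nuclear, no cross-hybridisation mark, groups not overlapping, a mean signal of at least 200 in the brighter group), and a fixed set of niche and strip genes. Members named beyond that were chosen after their values were seen. Alternatives were other pseudocounts (1 and 64), no filter, quantile normalization, equal nuclear medians, other variance settings, other sets of arrays, the replicate block and leaving out each array. Some members that enter the list counts are not reported here by name.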

Additional observations from a re-analysis of the deposited data

Results flagged for a closer look

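The 15 probe sets here passed in opposite directions at 24 h and at 96 h against 0 h. A pass between 24 h and 96 h was also required. They are given by the tested difference between the 96 h and 24 h effects on the log2 scale. That difference equals the comparison of 96 h with 24 h. Those above the untreated level at 24 h and below it at 96 h numbered 9. TDT, the vacuolar malate carrier, had a difference of -4.62 (adjusted p = 0.000185). UGT74F2, which glucosylates salicylic acid, had -3.64 (adjusted p = 0.0155) and overlaps between 0 h and 96 h. The peroxidase PER4 had -3.48 (adjusted p = 0.000399). AT3G23550, with no symbol in the gene table, had -3.31, from signals of 598 and 412 at 24 h to 34.8 and 36.8 at 96 h. NANA, an aspartic protease, had -3.13, and DLAH, a lipid hydrolase, had -3.07. AT3G47480 had -2.50, with 99.3 and 63.2 at 24 h and 1.3 and 0.5 at 96 h. AT4G33110 had -2.38 on a probe set marked for possible cross-hybridisation, and PIRL9, a leucine-rich repeat protein, had -1.82.

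The other 6 lay below the untreated level at 24 h and above it at 96 h. MYB32, a factor of phenylpropanoid genes, had a difference of 2.13, with 229, 220.2 and 325 at 0 h, 93.4 and 131 at 24 h and 664 and 438 at 96 h. ATRAD17, of the DNA damage checkpoint, had 2.18. AT3G10310 had 2.27. HIK, the kinesin of cytokinesis, had 2.51 (adjusted p = 0.00769). AT3G53190 had 2.87, with 26 and 97.1 at 24 h and 647 and 367 at 96 h. XTH9 had 3.68 (adjusted p = 0.000399), and its signals were nearly equal within each group, 105.4, 105.5 and 105.3 at 0 h and 472.5 and 472.5 at 96 h. Both effects use the same untreated arrays.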

How the results depend on the processing

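Against 0 h, the count of 6013 lay between 5556 and 7727 over the settings other than the replicate block that kept all arrays of both groups. It lay between 5383 and 6152 when single untreated arrays were left out. The count fell below both ranges without either 96 h array and with the replicate block. In those fits a single array stood for 96 h or for 0 h. None of the 195 results on named genes reversed under the settings tried, and 43 lost their call under at least 1 of them. Reversed here means a change of sign with a pass in the main or the alternative fit. Estimates that passed in neither fit changed sign in 5 cases between 96 h and 24 h and in 4 against the QC. Between 96 h and 24 h, the count of 443 became 250 after quantile normalization, 707 with all 26 arrays and 935 with the replicate block, and ranged from 14 to 311 without single arrays; the cause was not tested, beyond fewer arrays in the last case. Against the QC the count of 3472 became 4084 with the replicate block, and ranged from 2279 to 2736 without single arrays. The replicate numbers shared by the treated times and the QC gave little sign of pairing: deviations from group means correlated at -0.04 to 0.18 between same-numbered arrays. With so few arrays in a group, low correlations cannot exclude batches shared by same-numbered arrays. In the fit of the SCR arrays the numbers 1 and 5 occur only at 0 h. With the block, those untreated arrays therefore entered neither the change against 0 h nor the spread, and untreated replicate 3 alone stood for 0 h. Signals near background limit the size of changes in weak genes.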
